A study of Mus musculus with 4 samples.

Results

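The genes described here make sterols and fatty acids, or control that synthesis. They were chosen as a list of 37 genes by function, with earlier results of these data known. The list held the enzymes of the cholesterol pathway and the regulators of the SREBP transcription factors. It also held the fatty acid desaturases and elongases, and the enzymes of fatty acid synthesis and activation. Of the 37 genes, 35 had at least 1 probe set whose only gene symbol in the platform annotation was the member. All 35 passed the filter on low values, among 13222 genes that did so in all. Acat2 and Acsl1 had no such probe set and were not analysed here. The 35 genes were read by 85 probe sets, of which 78 passed the filter and 7 did not.

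The values come from 4 Affymetrix Mouse430_2 arrays of MyD88 -/- macrophages, grown from mouse bone marrow for 6 days with recombinant human M-CSF. MyD88 passes the signal of most Toll-like receptors and of the IL-1 receptor family to the cell, and every group, controls included, lacked it. Cells on 2 arrays were unstimulated (0 min), and cells on the other 2 had been given zymosan, a yeast cell wall preparation that macrophages also recognise through Dectin-1, at 100 ug/ml for 120 min. The names LPS and PIC stand in the titles of the unstimulated arrays, while their other labels state that no stimulus was given. The labels give neither strain, sex nor age of the mice, and nothing in them says that arrays of 1 group are separate mice or cultures. The p-values then reflect only the scatter of these arrays, part of which may be technical. No wild-type array was analysed here.

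A probe set is a group of short oligonucleotides aimed at 1 transcript. Its value is a log2 level made by the authors with RMA, which corrects background, equalises the arrays and summarises the probes. Every difference below is zymosan minus unstimulated on the log2 scale, so 1 unit is a doubling. Errors are limma's moderated standard errors (SE) or the SD over the 2 arrays of a group (n = 2 for every group mean), and adjusted p is limma's, corrected by Benjamini-Hochberg over all 27571 kept probe sets. Averages over the probe sets of a gene were fitted apart and corrected over 13222 genes. A gene was read at its probe set of highest mean and was called where adjusted p was under 0.05. Levels of different probe sets are not compared with each other, since each has its own brightness.

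As background, cholesterol is built from acetyl-CoA through mevalonate, isoprenoid diphosphates and squalene. Acly supplies cytosolic acetyl-CoA, from which Acaca and Fasn build fatty acids before these are elongated and desaturated. The genes of both routes are switched on by SREBP transcription factors. When membrane sterol is plentiful, the escort protein Scap is held in the endoplasmic reticulum by Insig proteins, and when sterol falls, Scap carries SREBP to the Golgi, where it is cut and released to the nucleus. In macrophages these lipids supply membrane for phagocytosis and secretory organelles, and oxysterols both restrain SREBP and activate the LXR receptors, which also drive Srebf1 and Scd genes.

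The SREBP factors bind sterol regulatory elements beside NF-Y and Sp1 sites, so the 250 bases before the start of 4 members are shown: the highest, second highest, nearest to 0 and lowest in difference among the members with a window in the RefSeq promoter table (GRCm38.p6). Each is written 5′ to 3′ on the strand of the gene, ending at the base before the start. Capitals mark matches to TCACNCCAC (a sterol regulatory element) and CCAAT (the NF-Y motif), searched on both strands, so that ATTGG is CCAAT read on the other strand.
Hmgcs1, chr13:119690101-119690350, plus strand: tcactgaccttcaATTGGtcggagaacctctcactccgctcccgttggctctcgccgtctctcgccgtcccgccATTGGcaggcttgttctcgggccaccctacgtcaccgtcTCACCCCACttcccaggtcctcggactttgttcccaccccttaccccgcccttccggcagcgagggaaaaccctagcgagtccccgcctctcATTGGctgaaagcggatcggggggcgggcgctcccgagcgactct
Sc5d, chr9:42264301-42264550, minus strand: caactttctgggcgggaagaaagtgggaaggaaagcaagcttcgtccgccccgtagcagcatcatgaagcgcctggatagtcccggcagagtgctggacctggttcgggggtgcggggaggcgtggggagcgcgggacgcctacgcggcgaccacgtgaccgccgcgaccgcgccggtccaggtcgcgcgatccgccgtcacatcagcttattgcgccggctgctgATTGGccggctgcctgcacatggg
Scap, chr9:110333038-110333287, plus strand: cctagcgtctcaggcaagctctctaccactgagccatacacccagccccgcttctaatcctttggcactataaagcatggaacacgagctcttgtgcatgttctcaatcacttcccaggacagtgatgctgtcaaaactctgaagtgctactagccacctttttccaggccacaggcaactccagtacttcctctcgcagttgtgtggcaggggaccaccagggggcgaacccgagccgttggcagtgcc
Ggps1, chr13:14063489-14063738, minus strand: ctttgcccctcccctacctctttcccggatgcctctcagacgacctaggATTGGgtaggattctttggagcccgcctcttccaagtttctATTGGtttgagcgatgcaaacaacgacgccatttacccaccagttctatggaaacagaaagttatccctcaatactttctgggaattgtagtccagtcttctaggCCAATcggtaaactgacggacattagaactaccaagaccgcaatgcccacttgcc
The Hmgcs1 window held TCACCCCAC at -137 to -129 from the start and 3 NF-Y motifs, the nearest at -45 to -41. Sc5d held 1 NF-Y motif at -24 to -20. Ggps1, whose difference was the lowest, held 3, and the Scap window shown held neither motif (Scap has 2 windows in the table). Of the windows shown, only that of Hmgcs1 held TCACNCCAC. Whether these motifs bear on the differences was not tested.

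Over the whole list, 30 of the 37 members had a window, taken from 250 bases before to 50 bases after the start. CCAAT was present in 25 of 30 (83.3%), against 41.1% of all 27025 genes with a window and 42% of the genes that passed the filter. It occurred at least 2 times in 14 members (13.3% of all genes and 15.9% of those that passed the filter). TCACNCCAC was present in Hmgcs1 and Acsl1 only (6.67%, against 1.44% of all genes), GGGCGG, the Sp1 motif, in 24 (80%, against 38.2% of all genes and 64.7% of those that passed the filter), and the E-box TCACGTGA in 0 (1.12% of all genes). Matches of different motifs were allowed to overlap. CCAAT was in 10 of the 11 called members with a window and in 14 of the 17 measured members with a window that were not called. TCACNCCAC was in 1 of those 11 and 0 of those 17, and GGGCGG in 8 and 14. Fdps, Fdft1, Sqle, Stard4, Scd1, Scd2 and Fads1 had no window.

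With zymosan, 15 of the 35 genes were higher and 0 lower by limma at adjusted p under 0.05, where 8.36% of all genes were called higher and 5.64% lower. At an unadjusted p under 0.05 the counts were 23 and 0, against 17.3% and 12.5% of all genes. The median difference of the 35 genes was 0.52, against 0.00 over all genes, and 30 of them had a positive difference. Both zymosan arrays lay above both unstimulated arrays for 28 members (32.4% of all genes did so) and below both for 2 (28.2% of all genes). The 15 called genes were higher by 1.35-fold to 4.35-fold, and 3 of them, Scd1, Hmgcs1 and Scd2, by more than 2-fold. In bulk RNA, fewer cells of a type and less RNA per cell cannot be told apart.

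These counts rest on few arrays. When zymosan replicate 1 was left out, 1 member (Scd1) stayed past the threshold, and when zymosan replicate 2 was left out, 0 did, and the list's median was 0.53 and 0.49. In those fits 1.21% and 0.787% of all genes were called higher. Members with an unadjusted p under 0.05 numbered 18 and 19 there, against 10.5% and 10.1% of all genes higher at that p. The 4 arrays were processed on 3 days, the unstimulated ones 16 days apart and both zymosan arrays together 153 days after the first, under another operator number and project, so the stimulus and these circumstances cannot be told apart. When the day entered as a random block, 4 members (Hmgcs1, Sc5d, Scd1 and Scd2) were called higher, against 2.64% of all genes.

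Granulocyte markers and some macrophage markers moved with the groups. Of 10 measured granulocyte markers, 9 were higher, and their summed level was 10.09 and 10.16 on the unstimulated arrays and 12.29 and 12.35 on the zymosan arrays (log2). Mpo read 4.53 on both unstimulated arrays and 7.76 and 7.77 with zymosan. The 9 measured macrophage markers, Lyz2, Cd68 and Csf1r among them, summed to 15.52 and 15.61 unstimulated and to 15.34 on each zymosan array (log2), with Adgre1, Cd14, Fcgr1 and Itgam called lower. Among 13 measured markers of T and NK, B, dendritic, erythroid and stromal cells, Cd79b was called lower and 0 were called higher, and none of the 4 mast cell and basophil markers or Col1a1, Adipoq and Lep passed the filter. The part of these cells in the member differences was not tested. Myd88 itself read 8.72 and 8.78 unstimulated and 8.37 and 8.40 with zymosan, and since it is not known here whether its probes lie in the deleted part, it checks no label.

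**Figure D1:**
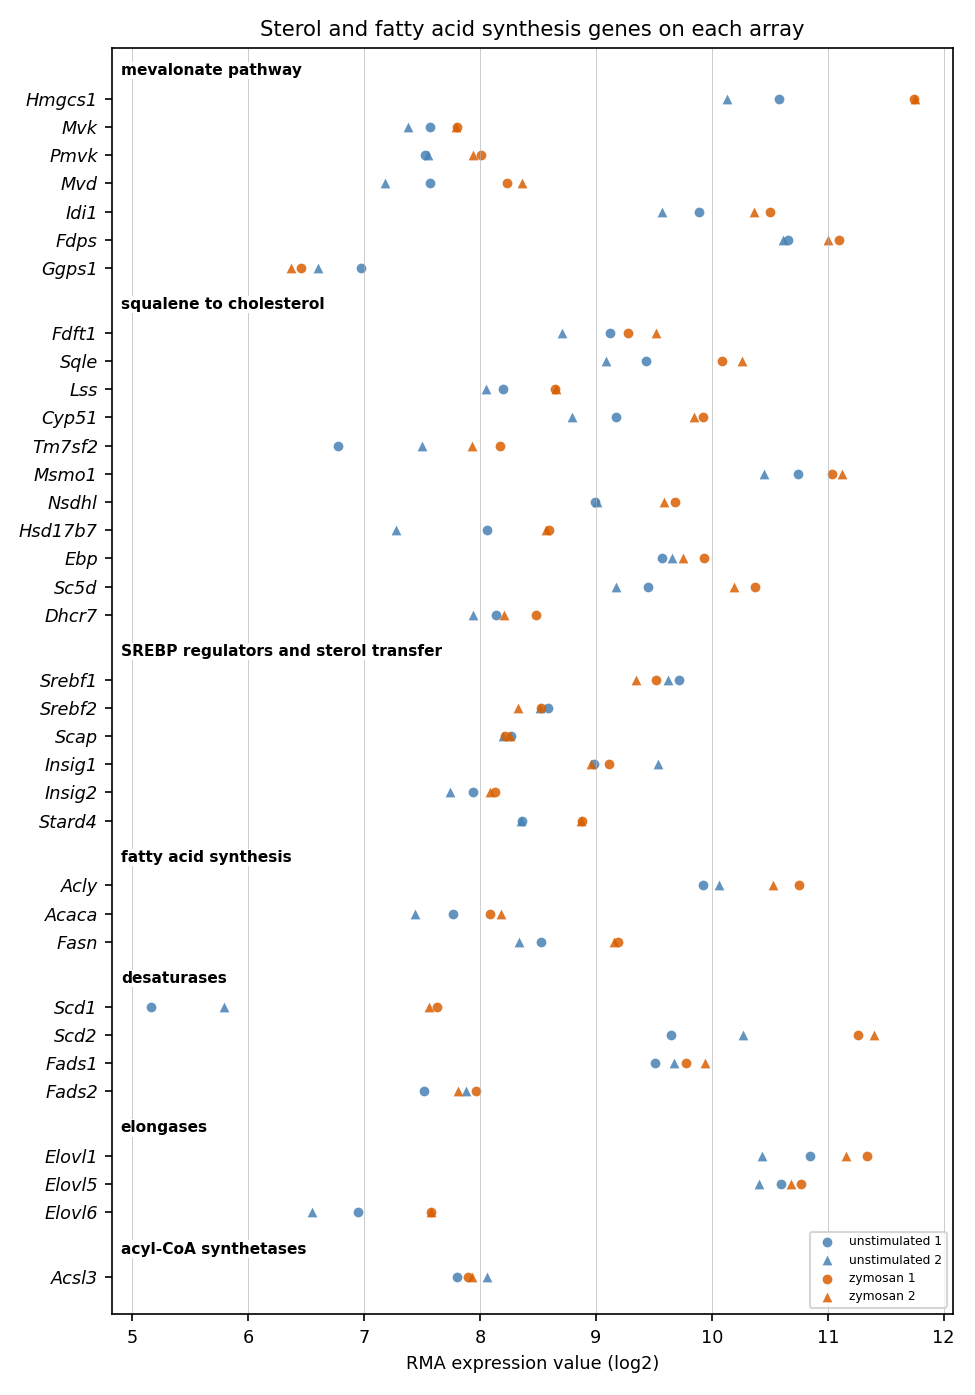
Log2 level of each of the 35 measured genes on each array (1 row a gene, grouped by role, with blue markers for the unstimulated and orange for the zymosan arrays, a circle for replicate 1 and a triangle for replicate 2). The zymosan markers lie to the right of both unstimulated markers in 28 rows, most widely for Scd1, Hmgcs1 and Scd2. Rows should not be compared with each other, since probe sets differ in brightness.

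The mevalonate pathway gave 4 genes called higher of 7 measured (Hmgcs1, Pmvk, Mvd and Idi1), against 8.36% of all genes. The median difference of the 7 was 0.43. Hmgcs1 condenses acetyl-CoA with acetoacetyl-CoA at the entrance of the pathway. It read 10.58 and 10.13 on the unstimulated arrays and 11.74 and 11.75 on the zymosan arrays. The unstimulated pair differed by 0.45 and the zymosan values were almost equal, with a wide gap between the groups. The mean went from 10.35 ± 0.32 to 11.75 ± 0.01 (SD), a difference of 1.39 (SE 0.17), or 2.62-fold, with adjusted p 0.00773. All 4 kept probe sets of Hmgcs1 were called higher, by 1.20 to 1.39.

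Mvk, which phosphorylates mevalonate, read 7.57 and 7.38 unstimulated and 7.80 and 7.79 with zymosan. Its arrays did not overlap, but the difference of 0.32 (SE 0.12, adjusted p 0.124) did not pass the threshold. At a second Mvk probe set the groups overlapped, with a difference of -0.07 (adjusted p 0.777). The average of both was 0.13 (adjusted p 0.463). Pmvk, the next kinase, read 7.53 and 7.55, then 8.01 and 7.94, a rise of 0.43 (SE 0.10, 1.35-fold, adjusted p 0.045), the smallest among the called members. Its call was lost when any 1 of the 4 arrays was left out, with values between 0.40 and 0.47 over all alternatives. Mvd, which decarboxylates the product to isopentenyl diphosphate, read 7.57 and 7.18, then 8.23 and 8.36. Its mean rose from 7.37 ± 0.28 to 8.30 ± 0.09, by 0.92 (SE 0.16, 1.9-fold, adjusted p 0.019), and its other probe set rose by 0.78 (adjusted p 0.00974).

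Idi1, the isomerase of isopentenyl diphosphate, read 9.89 and 9.57, then 10.50 and 10.36, a rise of 0.70 (SE 0.14, 1.63-fold, adjusted p 0.0298), which without unstimulated replicate 2 was 0.54 (adjusted p 0.0523). Fdps, which makes farnesyl diphosphate, read 10.66 and 10.61, then 11.10 and 11.00. Its groups were apart by more than either pair's gap, and the difference of 0.42 (SE 0.11) had adjusted p 0.0515, just short of a call. Ggps1, which lengthens farnesyl to geranylgeranyl diphosphate for protein prenylation, was the 1 sterol pathway enzyme with a negative difference at its brightest probe set. It read 6.97 and 6.60, then 6.46 and 6.37, a difference of -0.37 (SE 0.15, adjusted p 0.166). Without unstimulated replicate 2 that difference was -0.55, and without unstimulated replicate 1 it was -0.18. Probe set 1419506_at of Ggps1 was called higher, by 0.68 (adjusted p 0.0135). The remaining ones differed by -0.49 and 0.22 and were not called. Averaged over its 4 probe sets Ggps1 differed by 0.01 (adjusted p 0.951), so its sign depends on which probe set is read.

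From squalene to cholesterol, 5 of 11 genes were called higher (Sqle, Lss, Cyp51, Nsdhl and Sc5d), against 8.36% of all genes. All 11 differences were positive, from 0.22 to 0.98 with a median of 0.64. In all 11 both zymosan arrays lay above both unstimulated arrays, as they did for 32.4% of all genes. Sqle, the epoxidase that is a rate-limiting step after squalene, read 9.43 and 9.09 unstimulated and 10.09 and 10.26 with zymosan. Its mean rose from 9.26 ± 0.24 to 10.17 ± 0.12, by 0.91 (SE 0.15, 1.88-fold, adjusted p 0.0173). Cyp51, the lanosterol demethylase, read 9.17 and 8.79, then 9.92 and 9.85, a rise of 0.90 (SE 0.15, 1.87-fold, adjusted p 0.0175). Its 3 probe sets were all called higher, by 0.66 to 1.05.

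Sc5d, which places a double bond in the sterol ring late in the pathway, read 9.45 and 9.17, then 10.37 and 10.19. It rose by 0.98 (SE 0.14, 1.97-fold, adjusted p 0.0124), the largest difference in this group. A second probe set of Sc5d rose by 1.33 (SE 0.13, 2.51-fold, adjusted p 0.00466), while the remaining, dim one differed by -0.10 (adjusted p 0.597). Nsdhl, a sterol dehydrogenase, had a tight unstimulated pair of 8.99 and 9.01 against 9.68 and 9.59, a rise of 0.64 (SE 0.11, 1.55-fold, adjusted p 0.0171).

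Lss, which folds squalene epoxide into lanosterol, read 8.20 and 8.05, then 8.65 and 8.66, a rise of 0.53 (SE 0.11, 1.44-fold, adjusted p 0.0312). When the 3 probe sets of Lss were averaged, the difference was 0.29 and the call was lost (adjusted p 0.234), as it was without unstimulated replicate 2 (0.45, adjusted p 0.0643). Tm7sf2, a sterol reductase, had the second widest unstimulated gap among the members, 6.78 against 7.50, with 8.17 and 7.93 under zymosan. Its difference of 0.91 was as large as that of Sqle, but with an SE of 0.25 it was not called (adjusted p 0.0626). Msmo1, a sterol methyl oxidase, read 10.74 and 10.45, then 11.04 and 11.12, a difference of 0.49 (SE 0.14, adjusted p 0.0657).

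Hsd17b7, a sterol ketoreductase, was read most brightly by a probe set at 8.06 and 7.28, then 8.60 and 8.57. The unstimulated gap of 0.78 was the widest among the members, and the difference of 0.92 (SE 0.25) had adjusted p 0.0636. A second Hsd17b7 probe set with a close unstimulated pair, 6.85 and 6.67, against 7.64 and 7.64, was called higher by 0.88 (SE 0.11, 1.84-fold, adjusted p 0.00939). For Fdft1, squalene synthase, the brightest probe set read 9.12 and 8.71, then 9.28 and 9.52 (0.48, SE 0.17, adjusted p 0.124), and a second read 8.79 and 8.39, then 9.24 and 9.20 (0.63, SE 0.16, 1.55-fold, adjusted p 0.0492). The remaining probe sets differed by -0.13 for Hsd17b7 and by 0.09 and 0.05 for Fdft1, and the averages, 0.56 (adjusted p 0.0826) and 0.31 (adjusted p 0.129), were not called. Neither Ebp, the sterol isomerase (0.22, adjusted p 0.261), nor Dhcr7, which makes cholesterol in the last step of 1 branch (0.30, adjusted p 0.211), was called. Their 95% intervals ran from -0.07 to 0.52 and from -0.05 to 0.66.

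**Figure D2:**
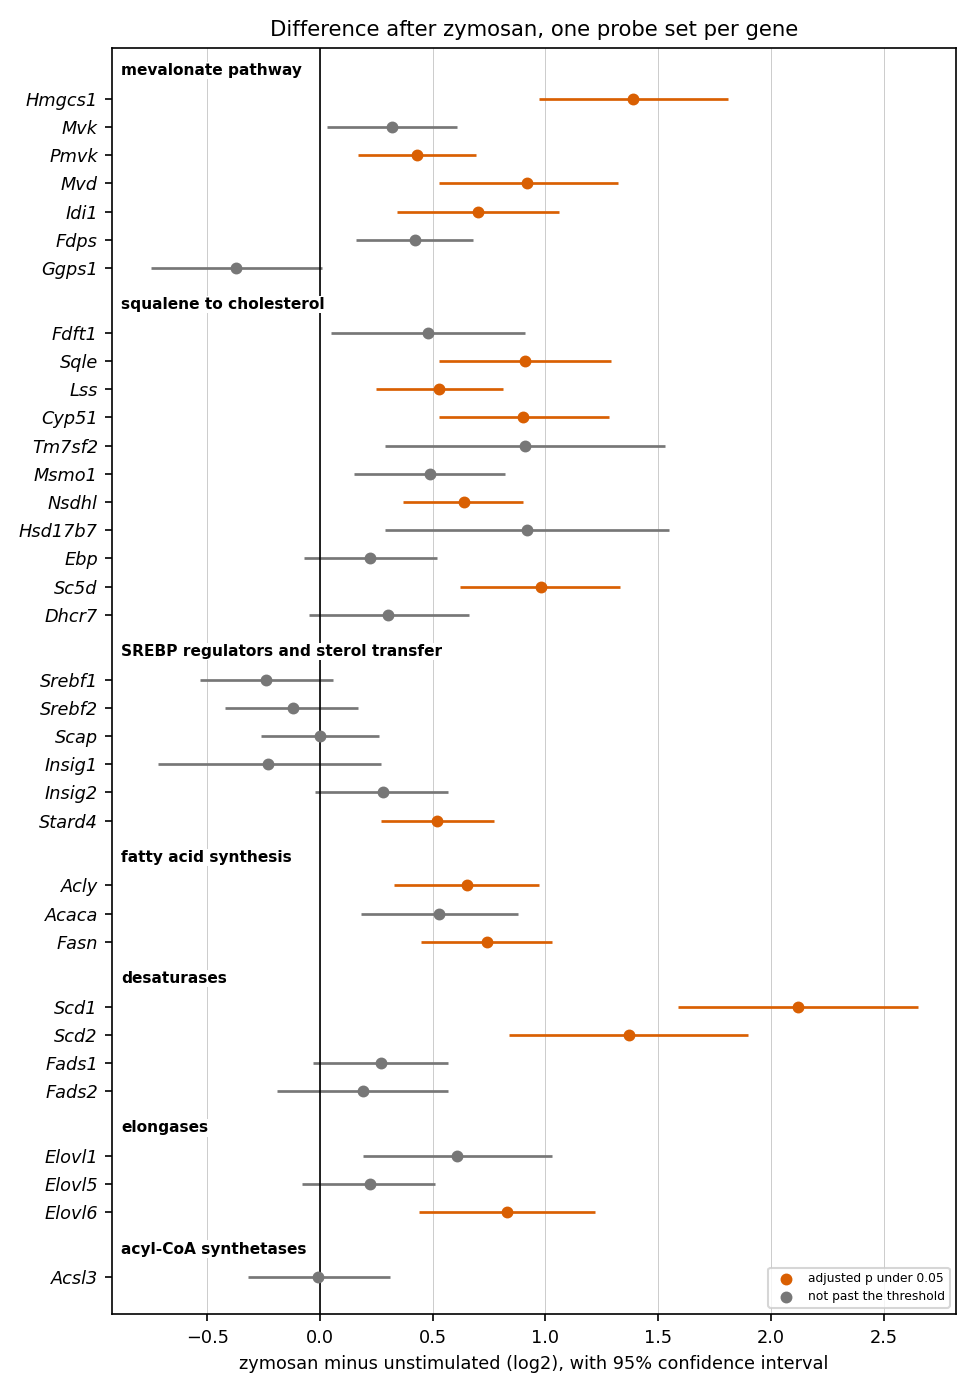
Difference zymosan minus unstimulated (log2) of each measured gene with limma's 95% interval, grouped by role and coloured by call at adjusted p under 0.05. The 15 called genes lie between 0.43 and 2.12, and the genes of SREBP control lie between -0.24 and 0.28 apart from Stard4.

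Among the regulators of SREBP and sterol transfer, 1 of 6 genes was called higher, the sterol carrier Stard4, where 8.36% of all genes were. The median difference of the 6 was -0.06, with a range from -0.24 to 0.52 that overlapped that of the enzymes, and the contrast between both groups was not tested. Srebf1, which encodes SREBP-1, read 9.72 and 9.62 unstimulated and 9.52 and 9.35 with zymosan, a difference of -0.24 (SE 0.12, adjusted p 0.234). Srebf2, which encodes SREBP-2, read 8.59 and 8.52, then 8.53 and 8.33, a difference of -0.12 (SE 0.12, adjusted p 0.543). The 95% intervals were -0.53 to 0.06 and -0.42 to 0.17. The groups of Srebf1 did not overlap, and those of Srebf2 did. A second Srebf2 probe set read 8.49 and 8.77, then 8.20 and 8.21, without overlap, a difference of -0.43 (SE 0.13, adjusted p 0.0828), and the average of both was -0.28 (adjusted p 0.109).

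Scap read 8.27 and 8.20, then 8.22 and 8.26, a difference of 0.00 (SE 0.10) with a 95% interval of -0.26 to 0.26. A second, dim Scap probe set read 4.14 and 4.01, then 4.43 and 4.49, a difference of 0.39 (SE 0.11, adjusted p 0.0697). Its unstimulated values lay under the level of the filter. The average of both was 0.19 (adjusted p 0.211). Insig1, itself a well-known SREBP target, read 8.98 and 9.54 unstimulated and 9.11 and 8.96 with zymosan. Unstimulated 2 was the high array and the other 3 lay close together, so the groups overlapped, and the difference was -0.23 (SE 0.20, adjusted p 0.502). Insig2 read 7.94 and 7.74, then 8.13 and 8.09, a difference of 0.28 (SE 0.12, adjusted p 0.179), and its other probe sets differed by -0.02 and -0.18.

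Stard4, which moves cholesterol between membranes, was called in both directions. Probe set 1429240_at read 8.36 and 8.35, then 8.88 and 8.87, a rise of 0.52 (SE 0.10, 1.43-fold, adjusted p 0.0261). Probe set 1429239_a_at read 8.52 and 8.69, then 8.0 and 7.65, a fall to a difference of -0.78 (SE 0.15, 1.72-fold, adjusted p 0.0263). The third differed by 0.31 (adjusted p 0.124). Averaged over the 3 probe sets Stard4 differed by 0.02 (adjusted p 0.931), so its call depends on which probe set is read.

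Among the fatty acid genes, 5 of 11 were called higher, against 8.36% of all genes, with a median difference of 0.61. Fasn, fatty acid synthase, read 8.53 and 8.34 unstimulated and 9.19 and 9.16 with zymosan. Its mean rose from 8.43 ± 0.13 to 9.17 ± 0.02, by 0.74 (SE 0.12, 1.67-fold, adjusted p 0.0147). Acly, which makes cytosolic acetyl-CoA from citrate, read 9.92 and 10.06, then 10.75 and 10.53, a rise of 0.65 (SE 0.13, 1.57-fold, adjusted p 0.0272). Its other kept probe sets differed by 0.32 and 0.30 without passing the threshold, and the mean of all 3 rose by 0.42 (adjusted p 0.0393). Without unstimulated replicate 1 the difference of Acly was 0.57 (adjusted p 0.0561). Acaca, acetyl-CoA carboxylase, read 7.77 and 7.44, then 8.09 and 8.18, a difference of 0.53 (SE 0.14) with adjusted p 0.06. A second, dim Acaca probe set differed by -0.05 (adjusted p 0.814), and the average of both was 0.24 (adjusted p 0.133).

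Of the 4 desaturases, Scd1 and Scd2 were called higher, and Scd1 had the largest difference of the 35 genes. Scd1, a stearoyl-CoA desaturase that makes oleate and palmitoleate, read 5.16 and 5.79 unstimulated and 7.63 and 7.56 with zymosan. Its mean rose from 5.48 ± 0.45 to 7.60 ± 0.05, by 2.12 (SE 0.22), or 4.35-fold, with adjusted p 0.0053. The zymosan values exceeded the higher unstimulated array by far more than the unstimulated gap. A second, dimmer Scd1 probe set read 4.52 and 5.11, then 5.38 and 5.89, a difference of 0.82 (SE 0.26) that was not called (adjusted p 0.087).

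Scd2, its paralog with the same reaction, was split by probe set. Probe set 1415822_at read 9.65 and 10.27, then 11.26 and 11.40, a rise of 1.37 (SE 0.21, 2.58-fold, adjusted p 0.0145). Probe set 1415824_at went the other way on every array, from 7.00 and 7.29 to 5.93 and 5.85, a difference of -1.25 (SE 0.14, 2.38-fold, adjusted p 0.00612). The third, 1415823_at, read 8.36 and 9.19, then 9.63 and 9.20, a difference of 0.64 (adjusted p 0.206). Averaged over the 3, Scd2 differed by 0.25 (adjusted p 0.426) and its call was lost. Where on the transcript each probe set lies was not used here, and whether Scd1 and Scd2 transcripts share probes was not tested.

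The polyunsaturated fatty acid desaturases were not called: Fads1 differed by 0.27 (SE 0.12, adjusted p 0.188) and Fads2 by 0.19 (SE 0.15, adjusted p 0.454). Fads2 read 7.52 and 7.88 unstimulated and 7.97 and 7.81 with zymosan, so its groups overlapped. Of the elongases, Elovl6, which extends palmitate to stearate, the substrate of Scd enzymes, read 6.95 and 6.55, then 7.58 and 7.58, a rise of 0.83 (SE 0.16, 1.77-fold, adjusted p 0.0241). Averaged over its 3 probe sets Elovl6 rose by 0.50 (adjusted p 0.0326). Elovl1, which makes very long saturated chains, differed by 0.61 (SE 0.17, adjusted p 0.064) at its brightest probe set, 10.85 and 10.43, then 11.34 and 11.16. At 2 other Elovl1 probe sets it was called higher, by 0.72 (adjusted p 0.029) and 0.77 (adjusted p 0.0375), and the average of its 4 probe sets was 0.59 (adjusted p 0.0319). Elovl5, which elongates polyunsaturated chains, differed by 0.22 at both of its probe sets and was not called. Acsl3, an acyl-CoA synthetase of lipid droplets, read 7.80 and 8.06, then 7.90 and 7.93, a difference of -0.01 (SE 0.13, adjusted p 0.974).

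Read at every probe set, 28 of the 78 kept member probe sets were higher and 2 lower (8.48% and 7.45% of all kept probe sets), with a median of 0.40 against -0.01 over all. Both zymosan arrays lay above both unstimulated arrays at 54 of them and below at 9 (30.4% and 30.2% of all kept probe sets). Of the 24 genes with several kept probe sets, 3 (Hmgcs1, Mvd and Cyp51) had all of them called higher, 10 had some higher, 9 had none called, and Stard4 and Scd2 had calls in both directions. At the 43 probe sets that did not stand for their gene, 13 were higher and 2 lower, with a median of 0.31. At least 1 probe set was higher in 19 genes, and for 4 of these (Ggps1, Fdft1, Hsd17b7 and Elovl1) it was not the brightest one. In Ggps1, probe set 1419506_at rose from 6.24 and 6.26 to 6.97 and 6.90, by 0.68 (SE 0.10, 1.61-fold, adjusted p 0.0135), against -0.37 at the brightest and -0.49 (adjusted p 0.0643) at another. Of the 35 probe sets that stood for genes, 5 carry the suffix x, given where some probes can bind other transcripts (Hmgcs1, Fdft1, Hsd17b7, Elovl1 and Elovl5). A further 4 carry the suffix s, given where the probes are shared by several transcripts (Mvd, Ggps1, Lss and Acsl3).

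**Figure D3:**
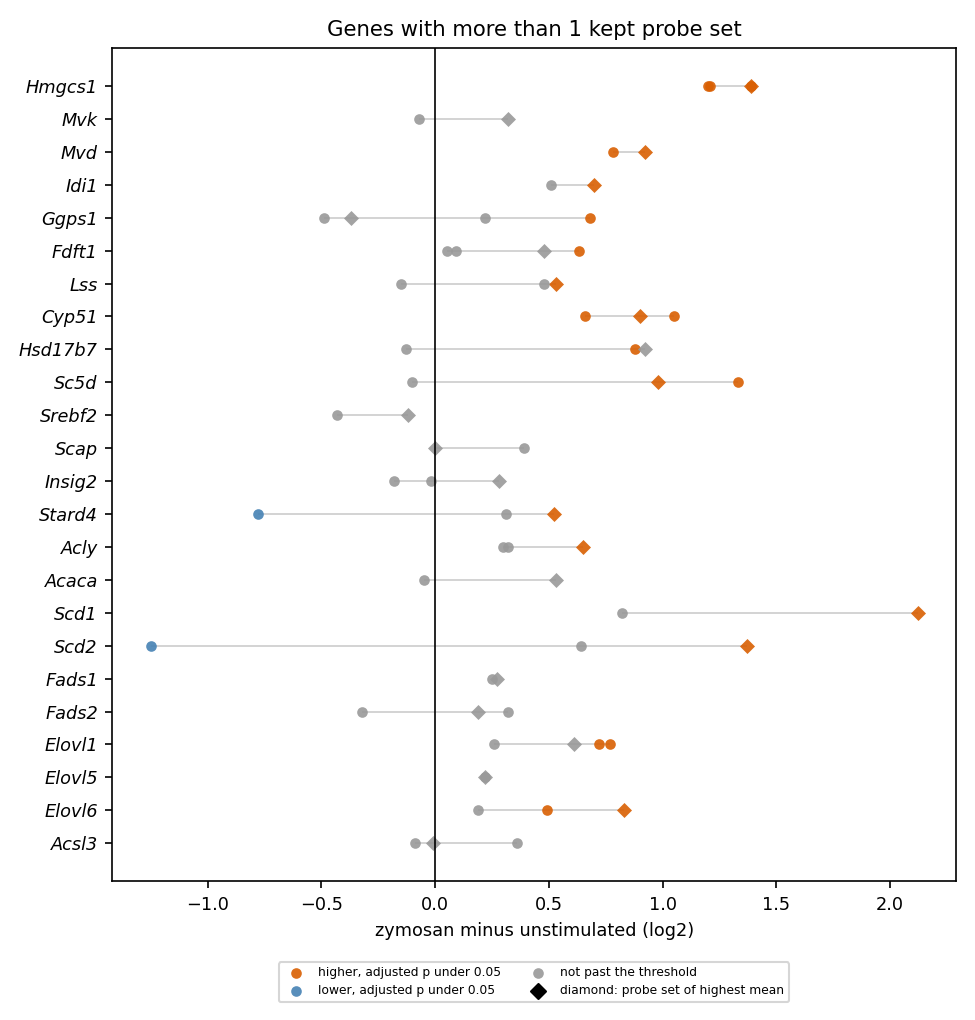
Differences (log2) at every kept probe set of the 24 genes with more than 1, 1 row a gene, with the brightest probe set as a diamond and colour for the call. Stard4 and Scd2 span from called lower to called higher, while Hmgcs1, Mvd and Cyp51 are called higher at every point.

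The unstimulated arrays differed from each other by an amount that bears on these differences. Over the 35 genes, unstimulated 1 minus unstimulated 2 ran from -0.72 to 0.78, while zymosan 1 minus zymosan 2 ran from -0.25 to 0.27. Unstimulated 1 was the higher array in 24 of 35 members, with a median gap of 0.19, where 57.5% of all genes were higher on it and the median over all genes was 0.04. The gap had a pattern by role: 14 of 18 sterol enzymes were higher on unstimulated 1 (median 0.29), whereas all 4 desaturases were higher on unstimulated 2 (median -0.49). Over the kept member probe sets, 50 of 78 were higher on unstimulated 1, against 52.3% of all. With 1 array a side this has no test. Measured against each unstimulated array alone, the median member difference was 0.40 against unstimulated 1 and 0.57 against unstimulated 2, and in 29 of 35 genes the zymosan mean was above both, against 39.5% of all genes.

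**Figure D4:**
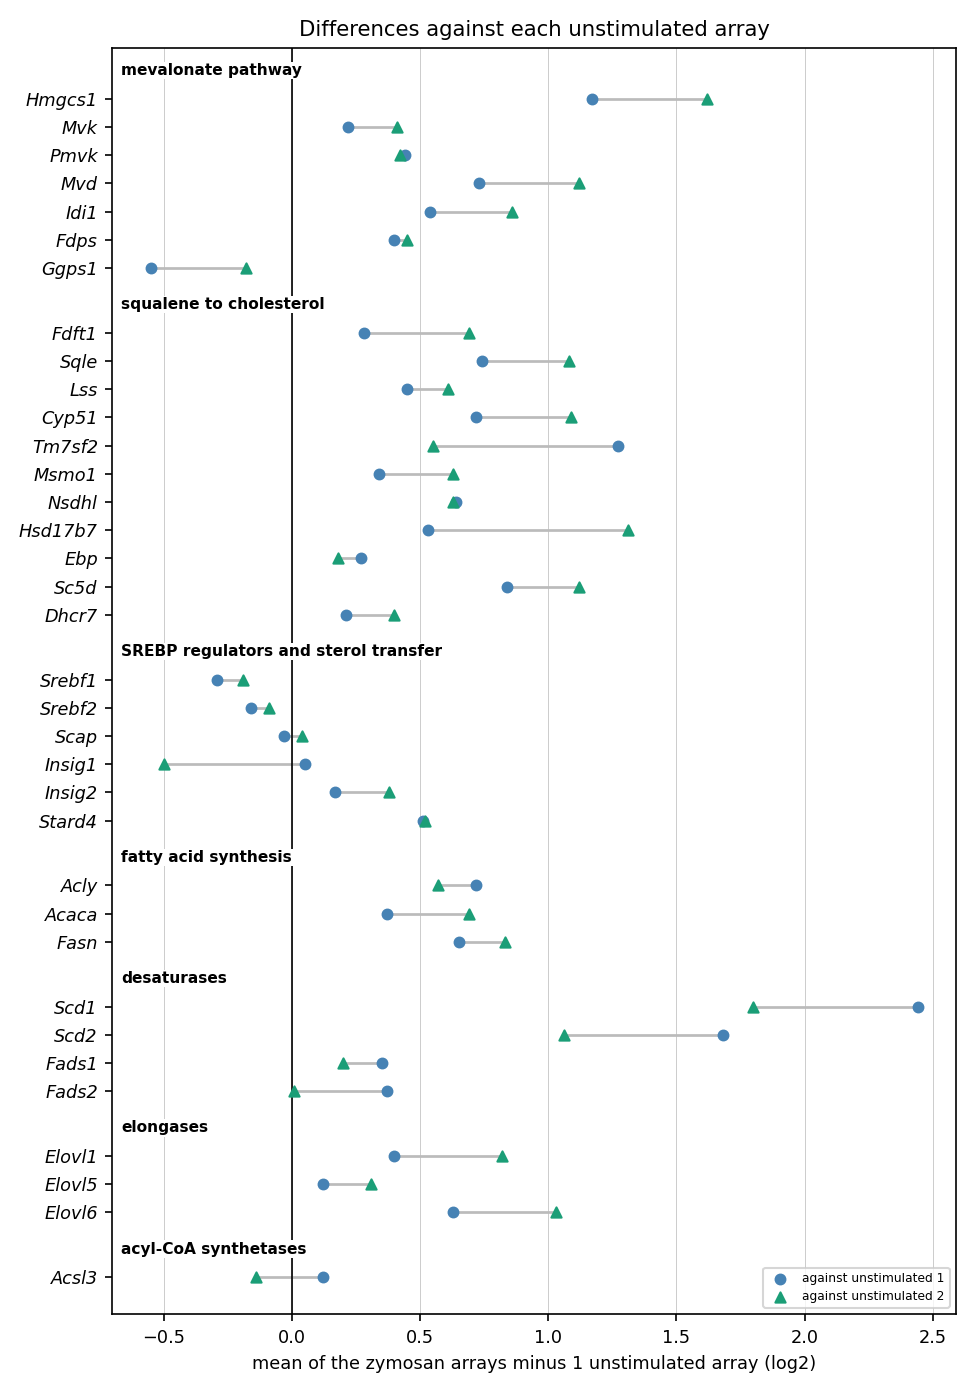
Zymosan mean minus each unstimulated array taken alone (log2), 1 row a gene and 1 marker for each unstimulated array. Both markers lie above 0 in 29 of 35 rows. The sterol enzymes mostly lie farther out against unstimulated 2 and the desaturases against unstimulated 1.

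Another 49 genes of sterol and fatty acid metabolism were listed beside the members, and 39 of them were measured. Among these, 5 were higher and 1 lower, beside the 8.36% and 5.64% of all genes, with a median difference of 0.09. At their 78 kept probe sets 10 were higher and 9 lower, beside 8.48% and 7.45% of all kept probe sets. The genes of SREBP cleavage and sterol sensing gave 0 calls among 6 genes. At an unadjusted p under 0.05 there were 2 in each direction, beside 17.3% of all genes higher and 12.5% lower. The proteases Mbtps1 and Mbtps2 differed by -0.33 and 0.28, and Erlin1 and Erlin2, which hold Insig and SREBP complexes in the membrane, by -0.32 and 0.39, with adjusted p between 0.103 and 0.13. A dimmer probe set of Mbtps1 was called lower, from 5.91 and 5.75 to 4.28 and 3.72, at least 2.74-fold (adjusted p 0.00625), and averaged over its 3 probe sets Mbtps1 differed by -0.87 (adjusted p 0.0061). Of 6 other sterol and isoprenoid enzymes, Nus1, for dolichol, rose by 0.57 (SE 0.11, 1.48-fold, adjusted p 0.0253) and Cyb5b, a cytochrome b5, by 0.45 (SE 0.11, 1.37-fold, adjusted p 0.0452). The other probe sets of Cyb5b differed by -0.05 and 0.17, and averaged over the 3 its difference was 0.19 and the call was lost (adjusted p 0.203). At the 18 kept probe sets of these 6 enzymes, 4 were called higher and 2 lower. The lower ones were of Cyb5r3 (-1.04, adjusted p 0.0135) and Dhdds (-0.62, adjusted p 0.0264), whose brightest probe sets differed by 0.07 and -0.25 and were not called.

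Acss2, which makes acetyl-CoA from acetate and is an SREBP target, read 5.76 and 5.76 unstimulated and 7.03 and 6.84 with zymosan, a rise of 1.17 (SE 0.12, 2.25-fold, adjusted p 0.00513). Fabp5, a fatty acid carrier of macrophages, read 11.85 and 12.22, then 13.28 and 13.49, a rise of 1.35 (SE 0.16, 2.54-fold, adjusted p 0.00763). Acss2 and Fabp5 were the 2 genes called higher of 9 measured for the supply of acetyl-CoA, NADPH and fatty acids. The other 7 were not called, and the median difference of the 9 was 0.16. At an unadjusted p under 0.05, 3 of the 9 were higher. Over all genes, 8.36% were called higher and 17.3% were higher at an unadjusted p under 0.05. The 9 other elongation, desaturation and activation genes gave 0 calls and 1 with an unadjusted p under 0.05, Fads3 at 0.71 (SE 0.18, adjusted p 0.0515). At their other probe sets Fads3 was called higher (0.63, adjusted p 0.0377), and Acsl4 (-1.05, adjusted p 0.00502), Hacd3 (-0.88, adjusted p 0.0145) and Hsd17b12 (-0.57, adjusted p 0.0429) were called lower. Of the LXR and oxysterol genes, Npc1, the lysosomal cholesterol exporter, rose by 0.60 (SE 0.12, 1.52-fold, adjusted p 0.0293). Ch25h, which makes 25-hydroxycholesterol, an inhibitor of SREBP processing, read 7.49 and 7.51, then 7.00 and 6.76, a difference of -0.62 (SE 0.12, 1.54-fold lower, adjusted p 0.0272). Its call was lost without unstimulated replicate 2 (adjusted p 0.0538) and without either zymosan array (adjusted p 0.0901 and 0.188), and those of Nus1, Cyb5b and Npc1 were lost without the same arrays. The call of Fabp5 was lost without zymosan replicate 2 (1.24, adjusted p 0.0743), and that of Acss2 was kept without any 1 of the 4 arrays. The LXR targets Abcg1 and Mylip differed by -0.29 (adjusted p 0.115) and -0.30 (adjusted p 0.126) and were not called. A second probe set of Abcg1 was called lower (-0.48, adjusted p 0.0373), as was the average of both (-0.39, adjusted p 0.0365). One probe set of Npc2 was called lower (-0.79, adjusted p 0.00935), while its brightest differed by 0.09 and was not called. Of the 9 measured LXR and oxysterol genes, 1 was called higher and 1 lower (8.36% and 5.64% of all genes). At their 14 kept probe sets 1 was higher and 3 lower (8.48% and 7.45% of all kept probe sets).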

How the data were processed

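The authors made the deposited log2 values with RMA, per the submitters' processing notes. The version of RMA is not given in the sources used here, nor is the set of arrays it was run on. Array medians lay between 4.92 and 4.94, so the values were used as deposited. No depth exists for arrays, and their number limits the precision. The scanner settings gave the order of processing days and the operator and project only.

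Gene names are those of the platform annotation. Without 64 controls there were 45037 probe sets: 34945 with 1 symbol, 932 with several and 9160 with none, and only those with 1 were named. Probe sets under the 40th percentile of their array (4.36 to 4.39) on more than 2 arrays were dropped. Differences were fitted in limma 3.58.1 (R 4.3.3) by lmFit, moderated by eBayes and tested 2-sided, after a check on simulated data. An exact permutation test of 2 arrays against 2 cannot give p under 0.333. Adjusted p-values come from the main fit over all kept probe sets unless an alternative is named. Each alternative was fitted and corrected anew, with averaged probe sets over 13222 genes, so its calls rest on another correction.

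All members are named, and of each group of other lipid genes the 4 of smallest p at most, besides some genes called at another probe set. Members and lists were chosen with earlier results of these data known. Other filters, normalisations, an intensity trend, the day as a random block, means of probe sets, a fit over genes and leaving out each array were tried. Promoters are RefSeq's.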

Additional observations from a re-analysis of the deposited data

How the results depend on the processing

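In the 7 alternatives that change the differences themselves (2 normalisations, averaged probe sets and leaving out each of 4 arrays), the 15 called members kept their sign, Stard4 at 0.02 (adjusted p 0.931) with averaged probe sets. The other alternatives change only the test. Leaving out 1 array at a time gave 0 to 18 members higher, 0 to 1 lower, 0 to 31 member probe sets higher, 0 to 4 lower, and 1 to 8 other lipid genes higher and 0 to 3 lower. The low ends for higher calls came without zymosan replicate 1 or 2, where 1 member (Scd1) and 0 were called. For the day as a random block, duplicateCorrelation gave no correlation for 4 arrays in 3 blocks. The value used, 0.54, was 1 minus the mean variance between the zymosan arrays over that between the unstimulated arrays. It takes both groups to have equal scatter apart from the day, which cannot be checked here. With this block 4 members were higher, 10 member probe sets were higher and 1 lower, and 2 other lipid genes were higher and 0 lower. Averaging probe sets gave 4 other lipid genes lower, against 1. The cause of these changes was not tested. The list's median was 0.31 with averaged probe sets and between 0.40 and 0.57 under the other alternatives. No paired analysis was possible because the array titles carry no numbers that the groups share. Probe sets near the level of the filter give the least certain values.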
